A study of Mus musculus with 8 samples.

Results

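The miRNA repertoire of blood monocytes (MNC) was described in the 4 MNC samples of a series of 8 samples. The other 4 samples held liver macrophages, the Kupffer cells (KC). All mice were of the Balb/C strain, no treatment was given in the labels, and an age was not given in the sources used here. Each MNC sample was a pool of sorted cells from 5 mice, of which 100 ng of total RNA entered the assay, so n = 4 pools. The cells were the mononuclear fraction of blood after a density gradient, enriched on magnetic beads against the surface protein F4/80. Such a fraction can also hold lymphocytes, platelets and red cells, and the flow cytometry of the sorted cells that the study describes was not used here. Labels of the MNC samples gave no further property by which the pools differed.

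A miRNA is a short RNA that pairs through its seed, bases 2 to 8 from its 5′ end, with messenger RNAs and lowers their translation or stability. Many blood lineages carry characteristic miRNAs. miR-142 is made in nearly all cells of haematopoietic origin, miR-223 in the myeloid lineage, miR-150 and miR-181a at different stages of lymphocytes, and miR-451, miR-144 and miR-486 in the red cell lineage. The nCounter panel counts single fluorescent barcodes, each bound to 1 tagged miRNA. Of the 626 panel entries, 566 were mouse miRNAs, and each was described by its barcode count, by its rank within the sample (rank 1 is the highest) and by its share of the total mouse miRNA count. Probes differ in efficiency, so ranks order the counts of probes and not the numbers of molecules.

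Detection in a sample required a count above the highest of its 8 negative controls. In all 4 MNC samples 13 mouse miRNAs were detected, which is 2.3% of the 566. The mature sequences found for 8 of these 13 are shown because the repertoire rests on them, and because shared seeds group them (RefSeq, build GRCm38.p6, 5′ to 3′, seed bases 2 to 8 in capitals).
miR-142-5p: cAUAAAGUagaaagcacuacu
miR-200b: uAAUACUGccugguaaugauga
miR-16: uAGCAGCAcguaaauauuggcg
miR-15b: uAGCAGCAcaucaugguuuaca
miR-205: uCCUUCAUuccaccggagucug
miR-25: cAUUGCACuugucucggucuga
miR-670: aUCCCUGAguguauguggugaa
let-7g: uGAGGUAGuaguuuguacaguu
The other 5 were miR-486, miR-720, miR-1944, miR-1940 and miR-30b. The mature miR-142-5p lies at chr11:87756867-87756887 on the plus strand in the gene Mir142. miR-15b, at chr3:69009775-69009796 on the plus strand, is separated by 121 bases from a copy of miR-16 at chr3:69009918-69009939, and an identical miR-16 comes from chr14:61631936-61631957 on the minus strand, so its count does not say which locus it came from. miR-200b lies at chr4:156055685-156055706, miR-205 at chr1:193507503-193507524, miR-25 at chr5:138165332-138165353 and miR-670 at chr2:94261358-94261379, all on the minus strand, and let-7g at chr9:106178846-106178867 on the plus strand. Only miR-16 and miR-15b among the 8 share a seed.

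The counts were low throughout. The total over mouse miRNAs was 5374, 10568, 8721 and 10000 in MNC 1 to MNC 4, the median mouse miRNA had 7 to 14 counts, and the highest negative control had 17, 35, 21 and 35 counts. In the 4 samples 43, 41, 86 and 31 mouse miRNAs were detected, and 453 of the 566 were detected in none. At least 1 MNC sample detected 113 mouse miRNAs (20% of the 566) and 8 of the 33 herpesvirus entries on the panel (24.2%). MNC 3 held 40 of the 62 miRNAs that were detected in a single sample. MNC 1 stood apart from the other pools. It had the lowest total, the lowest geometric mean of the positive ligation controls (533 counts, against 885 to 1136 in the others) and the highest geometric mean of the 4 mRNAs on the panel (1385 counts, against 771 to 1118). The main shares, counts and rank correlations are therefore given with and without it, and the part of ligation in them was not tested. Mouse miRNAs that were not detected in a sample still made up 49.2% to 71.0% of its total. With all 566 at the mean negative control, their sum would be 97.4%, 88.4%, 78.7% and 85.6% of the totals of MNC 1 to MNC 4. Background can thus make up most of each total. Shares of the total include it, which lowers those of the highest miRNAs and raises those of miRNAs near background.

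**Figure D1:**
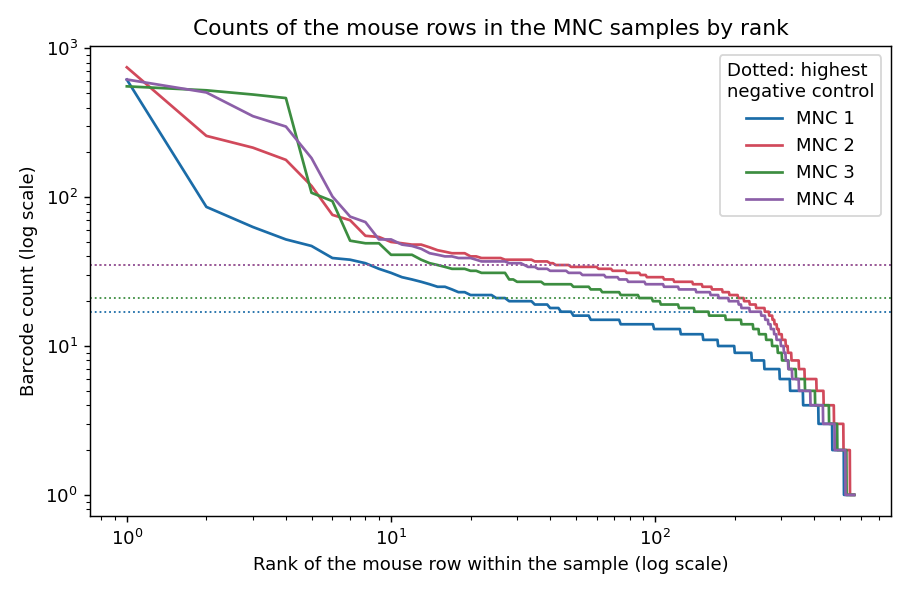
Barcode count of the 566 mouse miRNAs (y axis, log scale) against rank within the sample (x axis, log scale), 1 line for each MNC sample, with the highest negative control of each sample dotted. Few miRNAs stand well above the dotted lines, which cross the curves at 43, 41, 86 and 31 detected miRNAs.

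The head of the repertoire was miR-142-5p. It had 616, 745, 555 and 505 counts in MNC 1 to MNC 4 and ranked 1, 1, 1 and 2. Its counts were 14.4 to 36.2 times the highest negative control of the sample. Its share of the total was 11.5%, 7.05%, 6.36% and 5.05%, with a mean of 7.48% ± 2.78 (SD, n = 4). The 11.5% of MNC 1, with an exact 95% interval of 10.6% to 12.3%, lay above the other 3 shares, while its count there was the second highest, since the total of MNC 1 was the smallest. Without MNC 1 the mean share was 6.15%. The shares had intervals apart in 5 of the 6 pairs of samples. Exact (Clopper-Pearson) intervals here and below cover counting error only, not the spread between pools.

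The opposite arm of the same hairpin, miR-142-3p was not detected in any MNC sample. Its counts were 12, 32, 20 and 32. The 2 arms are separated by 15 bases on chromosome 11, and miR-142-3p has the sequence below.
miR-142-3p: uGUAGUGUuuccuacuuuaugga
The count of the 5p probe exceeded that of the 3p probe by 51.3, 23.3, 27.8 and 15.8 times in MNC 1 to MNC 4. With miR-142-3p at background these ratios are set by the background too, and whether the probes of the arms differ in efficiency was not tested.

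miR-486, which is abundant in red cells and lies within the Ank1 gene, followed. It had 63, 258, 522 and 617 counts and ranked 3, 2, 2 and 1. Its share was 1.17%, 2.44%, 5.99% and 6.17%, with a mean of 3.94% ± 2.52 (SD, n = 4) and 4.87% without MNC 1. The rank was thus stable while the share differed 5.26 times between the lowest and the highest pool, with intervals apart in 5 of the 6 pairs of samples. The count of miR-142-5p over that of miR-486 was 9.78, 2.89, 1.06 and 0.819. The order of these miRNAs was reversed in MNC 4.

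miR-720, an older database entry that matches a fragment of a tRNA, had 36, 215, 489 and 298 counts and ranked 8, 3, 3 and 4. Its mean share was 2.82% ± 2.08 (SD, n = 4), or 3.54% without MNC 1. All 6 pairs of samples had intervals that were apart. miR-1944 ranked 5 in each of the 4 samples, with 47, 119, 107 and 183 counts and a mean share of 1.26% ± 0.405 (SD, n = 4), or 1.39% without MNC 1. It was the only one of the 13 with the same rank in every pool. These 4 miRNAs together held 14.2%, 12.7%, 19.2% and 16.0% of the total, and each of them ranked within the first 10 in every MNC sample.

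Of the other 9 of the 13, miR-200b had the highest mean share, and the 8 others came within 5 counts of the highest negative control in at least 1 sample. Together they held 4.32%, 4.07%, 3.20% and 4.16% of the total. The epithelial miRNA miR-200b had 52, 70, 31 and 68 counts, 1.48 to 3.06 times the highest negative control, and ranks of 4, 7, 24.5 and 8. miR-16, which with miR-15b restrains Bcl2 and cell cycle genes, had 22, 76, 41 and 47 counts. It was 5 counts above the highest negative control in MNC 1 and ranked 22, 6, 11 and 12. miR-15b had 19, 36, 33 and 52 counts and ranked 37, 40.5, 18 and 9.5. The epithelial miRNA miR-205 had 33, 42, 34 and 39 counts, with ranks of 9, 18, 16 and 19. miR-205 kept its place within the first 20 of every pool although it never exceeded 42 counts.

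miR-25, of the cluster within Mcm7, had 18, 49, 41 and 37 counts, of which the value of MNC 1 was 1 count above the highest negative control. miR-30b had 18, 38, 28 and 48 counts and was likewise 1 count above it in MNC 1. The remaining members were miR-670 with 25, 37, 25 and 40 counts, miR-1940 with 22, 40, 23 and 45, and let-7g with 23, 42, 23 and 40. All 3 ranked beyond 50 in MNC 3.

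**Figure D2:**
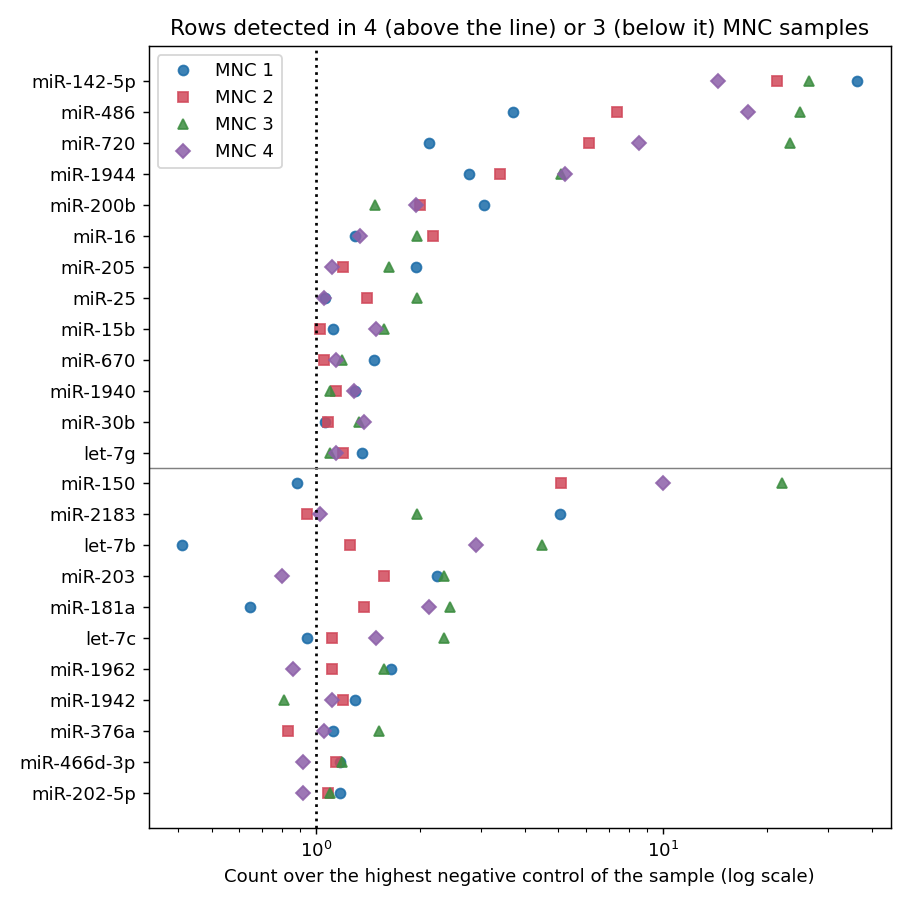
Count divided by the highest negative control of the sample (x axis, log scale) for the 13 miRNAs detected in 4 MNC samples and the 11 detected in 3, 1 marker for each sample, with a dotted line at equality. miR-142-5p, miR-486, miR-720 and miR-1944 lie at least 2.12 times above the line in every sample, while 8 of the other 9 come within 5 counts of it in at least 1 sample.

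Counting error was set against the background next. The lower limit of the exact Poisson 95% interval of the count was above the highest negative control in all 4 samples for 5 of the 13, namely miR-142-5p, miR-486, miR-720, miR-1944 and miR-200b, which is 0.883% of all 566. For miR-670, miR-1940 and let-7g it was above it in none. The 33 herpesvirus miRNAs on the panel, which uninfected mouse cells do not make, give a second view of the background. Of these, mcmv-miR-m88-1, was detected in all 4 MNC samples with 21, 42, 24 and 40 counts, a share of 3.03% of the 33 against 2.3% of the mouse miRNAs. It exceeded let-7g in MNC 3, by 1 count, and equalled it in MNC 2 and MNC 4. The share of miRNAs detected in all 4 pools was thus no higher for mouse than for herpesvirus entries. A miRNA at the level of the lower members of the 13 is not distinguished from background by this rule.

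The stability of ranks was described by rank correlations. Across the 13 miRNAs, Spearman's rho between pairs of MNC samples averaged 0.669, with a range of 0.540 to 0.826 over the 6 pairs and a mean of 0.696 for pairs without MNC 1. Over the 9 miRNAs other than the 4 highest it averaged 0.0562, with a range of −0.208 to 0.468 and a mean of 0.0831 without MNC 1. Removing the 4 highest narrows the range of counts, which by itself can lower rho. These are correlations across miRNAs, which are not independent replicates, and all samples share the probes. Over all 566 entries rho averaged 0.828, a value to which probes that read low in every sample contribute. Over the 113 miRNAs detected in at least 1 sample it averaged 0.281, with 0.172 for pairs that include MNC 1 and 0.390 for the others.

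In the order of mean shares, neighbours beyond miR-205 did not differ beyond counting error in any sample. miR-720 was above miR-1944 in 3 samples, in all 3 with intervals apart, and below it in MNC 1. miR-1944 was above miR-200b in 3 samples with intervals apart. miR-486 was above miR-720 in all 4, with intervals apart in 1. Of the 566 miRNAs, 5 were among the first 20 in every MNC sample (miR-142-5p, miR-486, miR-720, miR-1944 and miR-205), while 41 were among the first 20 in at least 1. Without MNC 1 the count in every sample was 9.

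The shares were compared between pools by their intervals. In 28 of the 566 mouse miRNAs, 4.95%, at least 1 of the 6 pairs of MNC samples had intervals that were apart, with no adjustment for the number of pairs. Most of the 566 were at background, where low counts give wide intervals, so the count of 28 does not show that the other shares were equal. Among the 13 this held for 5, namely miR-142-5p, miR-486, miR-720, miR-1944 and miR-200b. For the other 8 all intervals overlapped, a strict rule that does not show equal shares. The widest range among these 8 was that of miR-16, 0.409% to 0.719%.

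**Figure D3:**
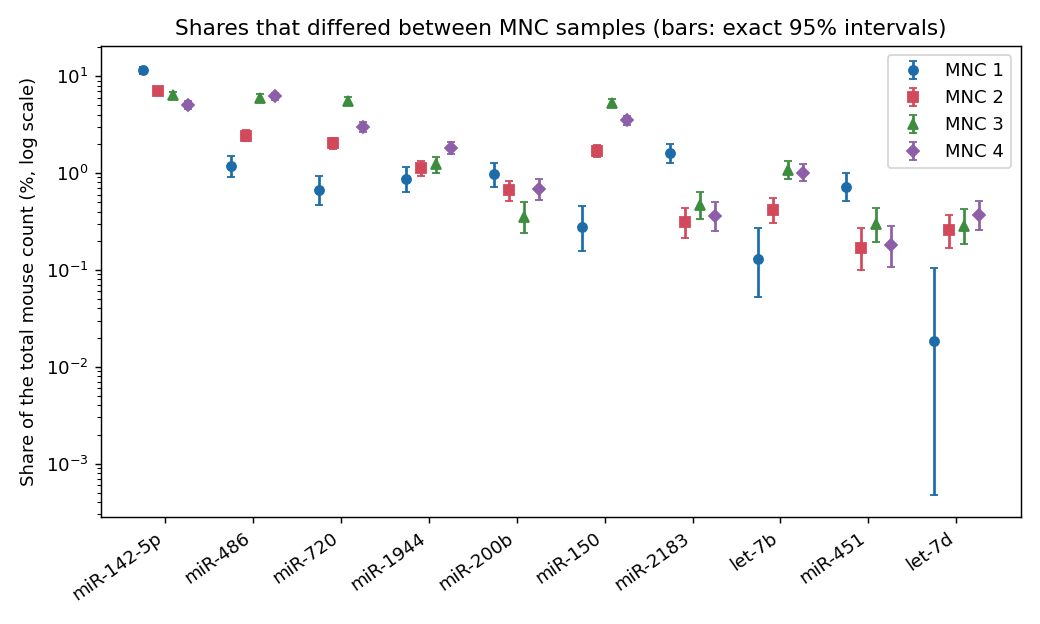
Share of the total mouse miRNA count (y axis in percent, log scale) in each MNC sample for the 10 named miRNAs with at least 3 pairs of samples apart, with exact 95% intervals of counting error as bars. miR-486, miR-720, miR-1944, miR-150 and let-7b are lowest in MNC 1, where let-7d stood at no more than 1 count. miR-142-5p, miR-200b, miR-2183 and miR-451 are highest in MNC 1.

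A further 11 miRNAs were detected in 3 of the 4 samples. The highest of them was miR-150, a miRNA of mature lymphocytes that acts on Myb, with 15, 178, 463 and 350 counts and ranks of 65, 4, 4 and 3. Its share was 0.279% in MNC 1 and 1.68%, 5.31% and 3.50% in the others, a mean of 2.69% ± 2.19 (SD, n = 4) and 3.50% without MNC 1. By the ratio of highest to lowest share it was the most variable of the named miRNAs that reached over 100 counts. This ratio was 19.0, and all 6 pairs were apart. With 15 counts in MNC 1, below the highest negative control of 17, the ratio is set by background too. miR-181a, which tunes antigen receptor signalling in developing lymphocytes, had 11, 48, 51 and 74 counts. Both were not detected in MNC 1 and were among the first 13 in the other pools. In bulk samples fewer cells of a type and less of an RNA per cell cannot be told apart. MNC 1 also had the lowest total and positive ligation controls, and their part in these values was not tested.

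let-7b had 7, 44, 94 and 101 counts and ranked 277, 15, 6 and 6. let-7c had 16, 39, 49 and 52 counts. These 4 miRNAs, miR-150, miR-181a, let-7b and let-7c, missed detection in MNC 1 only, and leaving MNC 1 out raised the set detected in every sample from 13 to 17. Leaving out any other sample raised it as well, to 15 without MNC 2, 14 without MNC 3 and 17 without MNC 4. miR-2183 ran the other way, with 86, 33, 41 and 36 counts and ranks of 2, 64.5, 11 and 29.5. The epithelial miRNA miR-203 had 38, 55, 49 and 28 counts and missed detection in MNC 4. The remaining 5 of the 11, miR-1962, miR-1942, miR-376a, miR-466d-3p and miR-202-5p, had between 17 and 42 counts in every sample.

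let-7 miRNAs, which promote differentiation, share the seed GAGGUAG, and 9 of them were on the panel. The sequences of 4 members are shown because they differ by few bases while their counts differed.
let-7a: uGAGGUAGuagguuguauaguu
let-7b: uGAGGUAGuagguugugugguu
let-7c: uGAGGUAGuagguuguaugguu
let-7d: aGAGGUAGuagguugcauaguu
let-7a and let-7c differ at 1 of 22 bases, as do let-7b and let-7c, and let-7a and let-7d differ at 2. let-7a was at no more than 1 count in all 4 pools, beside 16 to 52 counts of let-7c. let-7d was at no more than 1 count in MNC 1 and at 27, 25 and 37 in the others. let-7b at chr15:85707325-85707346 is separated by 687 bases from a copy of let-7c at chr15:85706616-85706637. Their counts were lowest in MNC 1 for both. Of the 9 members, let-7g was detected in 4 samples, let-7b and let-7c in 3, let-7d in 2, let-7e, let-7f and let-7i in 1 each, and let-7a and miR-98 in none. These are 7 of 9 in at least 1 sample and 1 of 9 in all 4, beside 20% and 2.3% of all mouse miRNAs. The family summed to 1.90%, 2.14%, 2.79% and 3.12% of the total. To what extent probes of this family bind the other members was not tested.

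Members of 4 further seed families are set beside the 80.0% of all mouse miRNAs that were detected in no sample and the 2.3% that were detected in all 4. Of the 6 panel miRNAs with the seed AGCAGCA, miR-16 and miR-15b were detected in all 4 samples, and miR-15a, miR-195, miR-497 and miR-322 in none. The 6 together held 1.49%, 1.70%, 1.31% and 1.62% of the total, background included. Of the 6 with the seed AUUGCAC, miR-25 was detected in all 4 samples, miR-367 in 2, and miR-92a, miR-92b, miR-32 and miR-363 in none. miR-92a had 5, 6, 4 and 4 counts. Of the 3 with the seed AAUACUG, miR-200b was detected in all 4 and miR-200c and miR-429 in none. Mature miR-429 and miR-200b are separated by 1747 bases on chromosome 4. miR-429 had 1, 3, 1 and 1 counts, where 1 stands for at most 1. miR-181a, which was detected in 3 samples, shares the seed ACAUUCA with miR-181c, which was detected in none. A combined entry for miR-181b and miR-181d had 10, 37, 26 and 24 counts and was detected in 2 samples.

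Lists of lineage miRNAs were set beside the label of the samples. They were chosen with earlier results of these data known, so they are not an independent check of that label. Among 11 myeloid miRNAs, miR-142-5p was detected in all 4 samples, miR-23a in 2, miR-146a and miR-27a in 1 each, and 7 in none. These are 4 of 11 detected in at least 1 sample and 1 of 11 in all 4, beside 20% and 2.3% of all mouse miRNAs. The median of their mean shares was 0.246%, against 0.136% for all 566 mouse miRNAs. Both lie at background. As a mean ratio to the highest negative control, the median of the list was 0.800, and 1 of the 11 was over 1. Herpesvirus entries had a median of 0.577. miR-223, the most characteristic of the list, had 8, 2, 7 and 11 counts, below the highest negative control in every pool.
miR-223: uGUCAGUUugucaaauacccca
miR-155, which is induced on activation of macrophages, stood at no more than 1 count in all 4 samples, and miR-21 had 7, 5, 5 and 5 counts. miR-146a, a feedback regulator of NF-κB signalling, had 8, 38, 21 and 29 counts and was detected in MNC 2 only. miR-23a had 13, 29, 22 and 39 counts. The list thus rested on miR-142-5p, which is made in nearly all cells of haematopoietic origin and so does not mark the myeloid lineage. miR-142-5p was detected in all 4 KC samples as well. miR-223 was not measured above background. The study names the RNeasy Plus Mini Kit for the isolation of RNA. Whether it kept short RNA was not given in the sources used here. A count at background therefore does not show that a miRNA was absent from the cells.

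Of 6 listed miRNAs of the red cell lineage, miR-486, miR-16 and miR-25 were detected in all 4 samples and miR-451 in 2, while miR-144 and miR-92a were detected in none, beside 2.3% of all mouse miRNAs detected in all 4 samples and 20% in at least 1. The list summed to 2.79%, 3.87%, 7.33% and 7.24% of the total, with miR-486 the highest member in each sample. miR-451, which matures without Dicer and is a defining miRNA of red cells, had 39, 18, 26 and 18 counts and ranked 6, 250, 43 and 219.5.
miR-451: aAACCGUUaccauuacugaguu
Its share was highest in MNC 1 (0.726%), where that of miR-486 was lowest (1.17%), and lowest in MNC 2 (0.170%). miR-144, separated by 119 bases from miR-451 on chromosome 11, had 3, 2, 5 and 1 counts. The part of red cells in the signal of miR-486 was not tested.

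Of 5 lymphocyte miRNAs with an entry of their own, miR-150 and miR-181a were detected in 3 samples and miR-342-3p, miR-342-5p and miR-28 in none (20% of all mouse miRNAs were detected in at least 1). They summed to 0.930%, 2.48%, 6.26% and 4.67%. The sum was highest in MNC 3 through miR-150, and the other 4 summed to 0.651%, 0.795%, 0.952% and 1.17%, highest in MNC 4. The part of lymphocytes in the differences between pools was not tested. Of 4 miRNAs of platelets and endothelium (both arms of miR-126, miR-221 and miR-222), none was detected, with 1 to 8 counts each. Of all mouse miRNAs, 80.0% were likewise detected in no sample. Of 4 hepatocyte miRNAs, miR-194 was detected in 1 sample, 1 of 4 beside 20% of all mouse miRNAs. miR-122, the most abundant miRNA of hepatocytes, had 2, 7, 6 and 3 counts in the MNC samples, below the mean negative control of each.

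**Figure D4:**
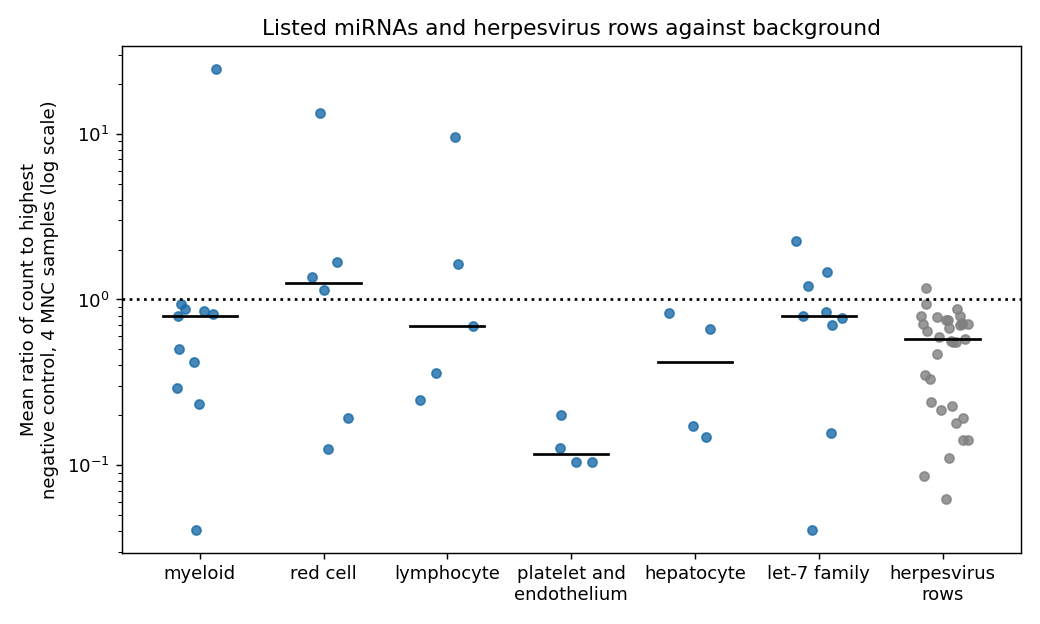
Mean over 4 MNC samples of the count divided by the highest negative control (y axis, log scale) for each listed miRNA (blue) and each herpesvirus entry (grey), with list medians as bars and a dotted line at equality. List medians lie at 0.800 for myeloid, 1.25 for red cell, 0.690 for lymphocyte, 0.117 for platelet and endothelium, 0.418 for hepatocyte and 0.796 for let-7 miRNAs, beside 0.577 for herpesvirus entries and 0.444 for all mouse miRNAs.

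Values of the KC samples are given beside those of the MNC samples with no test. Of the 13 miRNAs, 8 were also detected in all 4 KC samples, in which 25 mouse miRNAs were detected in all. The mean share in KC was 5.35% for miR-142-5p, 1.02% for miR-486, 2.18% for miR-720 and 4.76% for miR-1944 (n = 4 each), in comparison with 7.48%, 3.94%, 2.82% and 1.26% in MNC. miR-142-5p ranked 1 to 3 in KC, and miR-451 was detected in no KC sample.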

How the data were processed

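Barcode counts were collected on an nCounter FLEX instrument with a Mouse miRNA V 1.5 panel. The deposited values are a normalized signal that the authors made with nSolver Analysis Software 4.0. In the MNC samples 100% of the scaled values were whole multiples of 1 factor per sample (0.589 to 1.06, tolerance 0.02 of a count), which followed the 4 mRNAs of the panel, so counts were recovered by division. A value listed as 1 stands for at most 1 count. Background was not subtracted. The study names the RNeasy Plus Mini Kit and a further RNA clean-up for the nanostring samples. Whether these retained short RNA was not given in the sources used here. The total mouse miRNA count was 5374 to 10568 per sample. Intervals of shares are exact binomial (Clopper-Pearson) and those of counts exact Poisson, both at 95% and for counting error only. No test between groups was run. Ties took the mean rank. The miRNAs named were those detected in all 4 MNC samples, up to 10 detected in 3 by mean share, 4 markers, up to 4 detected members and the defining members of each list, and miRNAs sharing a seed. miR-202-5p and mcmv-miR-m88-1 were added after their values were seen. Members and lists were chosen with earlier results of these data known. Of 24 miRNAs detected in 3 or 4 samples, 15 matched a RefSeq mature sequence. Alternatives were other background limits, the deposited signal, net counts, other denominators, medians and leaving out each sample. The recovery of counts was tested on simulated data. Python 3.11.15, pandas 2.3.3, NumPy 2.4.6, SciPy 1.17.1 and matplotlib 3.10.9 were used.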

Additional observations from a re-analysis of the deposited data

Results flagged for a closer look

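In 63 sets of 4 MNC shares, the gap of the highest or lowest sample to the nearest other, divided by the whole range, passed Dixon's 95% limit in 4, where chance gives about 1 in 20, or 3.15 sets. These were miR-205 (0.966, MNC 1 highest), miR-2183 (0.877, MNC 1 highest), miR-1942 (0.910, MNC 3 lowest) and miR-21 (0.879, MNC 1 highest, with 7 counts there). The herpesvirus entry mcmv-miR-m88-1 was over the highest negative control in all 4 MNC samples, with a mean of 31.75 counts.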

How the results depend on the processing

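The number of miRNAs detected in all 4 MNC samples (13) was 9 with a limit of the mean plus 2 SD of the negative controls, 13 with the negative ligation controls added, 6 with the highest herpesvirus entry as the limit and 5 with the deposited signal in place of counts. miR-142-5p, miR-486, miR-720, miR-1944 and miR-200b were in the set under every setting run. With the herpesvirus limit 68 miRNAs were detected in at least 1 sample, in place of 113. The summed share of the 13 (19.45%) became 16.69% for the set under the herpesvirus limit, 16.18% for that of the deposited signal, 41.34% with the mean negative control subtracted and 38.42% over detected miRNAs only. The share of the 10 highest (21.84%) became 47.78% and 42.91% under the last 2 settings. The mean rho of 0.669 became 0.826 over the 9 miRNAs left with the mean plus 2 SD and 0.781 over the 6 left with the herpesvirus limit. Leaving out each sample in turn gave 14 to 17 miRNAs detected in all, and 73 (without MNC 3) to 107 in at least 1. Over the set detected in all samples kept, which differs by setting, summed shares were 18.87% to 25.17%. The highest was without MNC 1, over 17 miRNAs. Over the same sets mean rho was 0.469 (without MNC 2) to 0.759. Shares of the 10 highest were 19.86% to 23.37%, and 5 to 9 miRNAs were within the first 20 of every sample (9 without MNC 1). Subtracting the mean negative control moved the shares of 43 of the 53 named miRNAs by more than 1 SD. Mean shares then were 18.17% for miR-142-5p, 8.50% for miR-486, 5.95% for miR-720 and 2.58% for miR-1944. No paired analysis was possible because no result came from a test between groups. The depth of 5374 to 10568 counts limits shares of single miRNAs near background, and 4 pools limit the estimate of their spread.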
